A study of Homo sapiens with 12 samples.

Results

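The integrin and laminin genes were followed in 2 hepatocellular carcinoma cell lines treated with DAAD2, a derivative of dehydroabietylamine that carries N-acetyl-L-cysteine. The members are the probe sets of the Affymetrix Human Genome U133 Plus 2.0 array that are annotated with the symbol of 1 integrin subunit gene (ITGA or ITGB) or 1 laminin chain gene (LAMA, LAMB or LAMC). They were chosen by gene name, with earlier results of these data known. These are 91 of the 54613 probe sets tested, 68 for 24 integrin genes and 23 for 10 laminin genes, or 34 of 19775 genes. SNU449 cells, which the study calls resistant to DAAD2, were treated with 20 µM DAAD2 for 72 h and set against SNU449 cells in 0.1% DMSO. Hep3B cells, which it calls sensitive, were treated with 2 µM DAAD2 for 72 h and set against Hep3B cells in 0.1% DMSO. Both are established lines, and each of the 4 groups has 3 arrays. The dose differs with the line, so a difference between the lines in their response and a difference between the doses cannot be told apart. The sample records do not say whether the 3 arrays per group stem from separate cultures, so the p-values measure only the spread between these arrays, which may be technical.

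Integrins are receptors of an alpha and a beta subunit that hold a cell to the extracellular matrix or to other cells and pass signals in both directions across the membrane. Each alpha subunit sets most of the ligand choice, and the beta-1 subunit pairs with many alpha subunits. Laminins are trimers of an alpha, a beta and a gamma chain that form the sheet of the basement membrane. Cells hold to it through integrins with alpha-3, alpha-6 or alpha-7 and, in the hemidesmosomes of epithelial cells, through alpha-6 paired with beta-4. In liver, hepatocytes carry few integrin types and sit on a matrix poor in laminin, while liver tumours often carry more of both.

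Every value is an RMA level on the log2 scale, as the authors deposited it, and a difference is DAAD2 minus DMSO on that scale. The array medians lay between 3.71 and 3.85. The mean level of 7 hepatocyte markers was higher in Hep3B than in SNU449. It lay between 4.28 and 4.53 in SNU449 with DAAD2 and between 4.09 and 4.41 in SNU449 with DMSO. In Hep3B it lay between 11.62 and 11.69 with DAAD2 and between 11.85 and 11.94 with DMSO. By the brightest probe set of each gene, ALB and APOB were above the mean array median of 3.78 only in Hep3B. AFP, APOA1, TTR, SERPINA1 and TF were above it in both lines by that measure. A further SERPINA1 probe set averaged 3.36 in SNU449 with DMSO, below that median, against 12.71 in Hep3B with DMSO. A further TF probe set averaged 3.44 in SNU449 with DMSO, against 13.73 in Hep3B with DMSO. For SERPINA1 and TF a level above the median in SNU449 thus depends on the probe set. The 3′ minus 5′ difference of the GAPDH control probe sets, a measure of RNA quality, was 1.99 on replicate 2 of DAAD2-treated SNU449 cells, against 0.34 to 0.97 on the other SNU449 arrays and 0.45 to 1.51 on the Hep3B arrays, so results in SNU449 that turn on that array are given with and without it.

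Of the 91 probe sets, 52 had a group mean above 3.78 in at least 1 group and 34 in all 4 groups, while 39 were below it everywhere and are called dim. No probe set of ITGB8, LAMA1, LAMA2 or LAMB4 reached that level in any group. Above it were 44 probe sets in SNU449 with DAAD2, 41 in SNU449 with DMSO, 39 in Hep3B with DAAD2 and 40 in Hep3B with DMSO, each time for 27 of the 34 genes. Levels of different probe sets were not set against each other, because probes differ in how well they bind. The RNA came from whole cultures, where fewer cells with a transcript and less of it per cell cannot be told apart.

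Treatment of SNU449 cells with DAAD2 left every integrin and laminin probe set short of the threshold, although a few moved apart from their DMSO arrays. The test was limma, p-values were adjusted by Benjamini-Hochberg across the whole array, and a gene or probe set counts as called where the adjusted p is under 0.05. It called 0 members higher, where 1.04% of all probe sets were called higher, and 0 members lower, where 0.417% of all were called lower. At an unadjusted p under 0.05, 8 members were higher (8.79% of members, 6% of all probe sets) and 3 were lower (3.3% of members, 5.8% of all). The DAAD2 arrays lay wholly above the DMSO arrays for 8 members, against 8.34% of all probe sets, and wholly below them for 8, against 7.76% of all. The median difference was 0.04 over the members and 0.005 over all probe sets. These shares lie near those of the whole array.

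The laminin-binding integrin alpha-6 beta-4 had its subunits on opposite sides. ITGB4, on chromosome 17, encodes the beta-4 subunit, whose long tail anchors hemidesmosomes to keratin filaments. Its brightest probe set (204990_s_at) was at 9.98, 9.25 and 9.89 on the DAAD2 arrays of SNU449, against 9.11, 8.70 and 8.67 on the DMSO arrays. All DAAD2 arrays lay above all DMSO arrays, and replicate 2 was the lowest of the DAAD2 arrays. The difference was 0.88 ± 0.21 (SE), 1.84-fold, with a 95% interval of 0.41 to 1.35 and a limma adjusted p of 0.0913. Without replicate 2 of the DAAD2 arrays it was 1.11 with an adjusted p of 0.0224. With each array left out in turn it was 0.74 to 1.11, and the highest adjusted p was 0.326.

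ITGB4 has 4 further probe sets, and their differences with all arrays were smaller or of the opposite sign. The probe set 204989_s_at was at 5.46, 4.02 and 6.07 on the DAAD2 arrays of SNU449, against 4.94, 5.11 and 5.11 on the DMSO arrays, a difference of 0.13. Its groups overlapped because replicate 2 lay below every DMSO array while the other DAAD2 arrays lay above them. The probe sets 230704_s_at, 214292_at and 211905_s_at had group means in SNU449 between 3.35 and 3.88, near or under the array median, and differences of -0.25, -0.07 and 0.35 with overlapping arrays. Without replicate 2 of the DAAD2 arrays, 204989_s_at differed by 0.71 (limma adjusted p = 0.108) and 211905_s_at by 0.60 (adjusted p = 0.127), while 230704_s_at differed by -0.33 and 214292_at by -0.10. Without replicate 3 of the DAAD2 arrays, the highest of 204989_s_at, its difference was -0.32, so neither its size nor its sign held.

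ITGA6, on chromosome 2, encodes the alpha-6 subunit, which binds laminin with beta-4 or beta-1. Its probe set 215177_s_at was at 5.61, 6.24 and 5.39 on the DAAD2 arrays of SNU449, against 6.56, 6.67 and 7.00 on the DMSO arrays. The arrays did not overlap, and here replicate 2 was the DAAD2 array nearest to the DMSO arrays. The difference was -1.0 ± 0.22 (SE), 1.99-fold, with a 95% interval of -1.49 to -0.50 and a limma adjusted p of 0.0719. Without replicate 2 it was -1.24 with an adjusted p of 0.0169, and in a fit of all 12 arrays the adjusted p was 0.0233. With each array left out in turn it was -1.24 to -0.82, and the highest adjusted p was 0.273. The brighter ITGA6 probe set 201656_at was at 8.16, 8.78 and 7.78 with DAAD2, against 8.66, 8.56 and 9.0 with DMSO, a difference of -0.50 (adjusted p = 0.476) with overlapping arrays, and -0.77 (adjusted p = 0.0762) without replicate 2. Both ITGA6 probe sets had their highest DAAD2 value on replicate 2, where both of the brighter ITGB4 probe sets had their lowest.

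**Figure D1:**
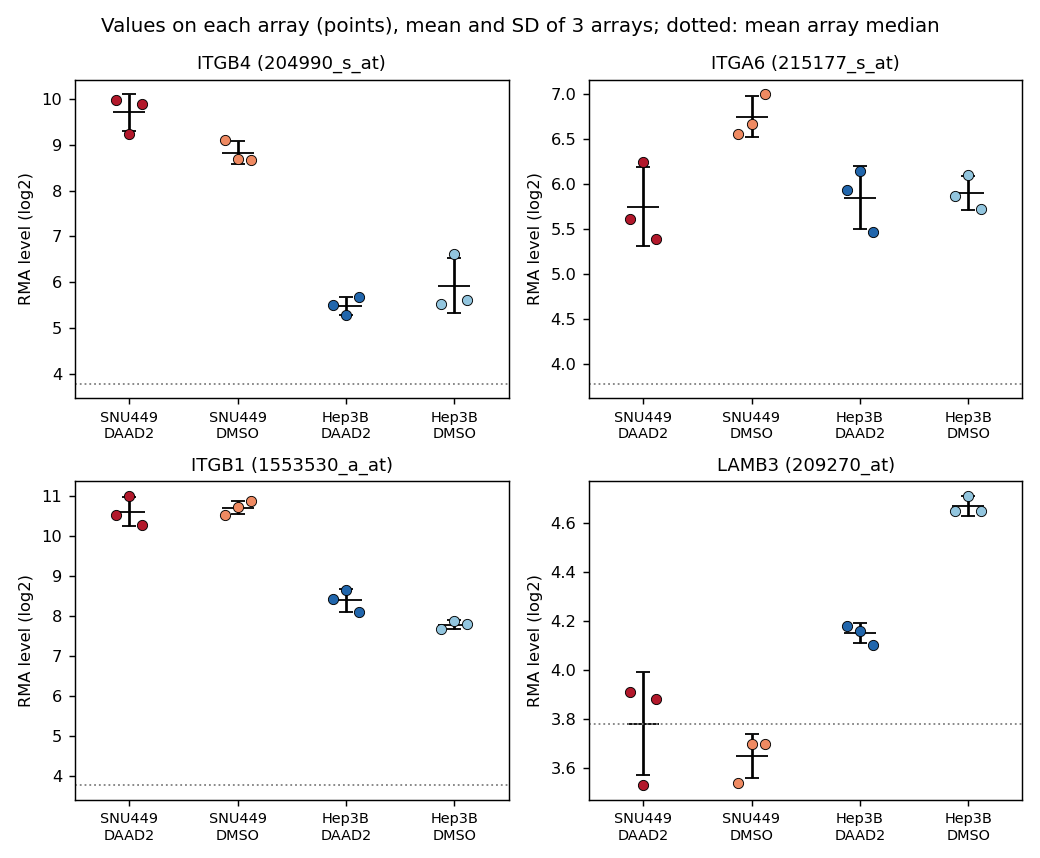
RMA level (log2) on every array for the probe sets of ITGB4, ITGA6, ITGB1 and LAMB3 with an unadjusted p under 0.05 and a fold over 1.5 in a line, or called between the lines. Points are arrays, bars are the mean and SD of 3 arrays, and the dotted line is the mean array median of 3.78. In SNU449 the ITGB4 points with DAAD2 lie above those with DMSO and the ITGA6 points below them, while in Hep3B the same stand out for ITGB1 (above) and LAMB3 (below).

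In Hep3B cells the same 2 genes gave no such split. ITGB4 (204990_s_at) was at 5.50, 5.27 and 5.67 with DAAD2, against 5.53, 6.62 and 5.61 with DMSO, a difference of -0.44 ± 0.26 (SE) with an adjusted p of 0.476 in limma. The arrays overlapped, and replicate 2 of the DMSO arrays stood more than 1 SD above the others of its group. Without that array the difference was -0.09. ITGA6 (215177_s_at) was at 5.93, 6.14 and 5.47 with DAAD2, against 5.87, 6.10 and 5.72 with DMSO, a difference of -0.05 with a 95% interval of -0.46 to 0.35, and it was 0.14 without replicate 3 of the Hep3B DAAD2 arrays. The response in SNU449 minus that in Hep3B was 1.32 for ITGB4 (adjusted p = 0.098) and -0.94 for ITGA6 (adjusted p = 0.159) in the limma interaction test. Without replicate 2 of the SNU449 DAAD2 arrays these became 1.55 (adjusted p = 0.0325) and -1.19 (adjusted p = 0.0267), and the ITGB4 probe sets 204989_s_at (0.92, adjusted p = 0.0275, against 0.34 with all arrays) and 211905_s_at (0.80, adjusted p = 0.0434, against 0.54) passed as well. The highest adjusted p of this term with an array left out was 0.230 for ITGB4 (204990_s_at) and 0.349 for ITGA6 (215177_s_at).

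In Hep3B cells treated with DAAD2 no integrin or laminin probe set passed the threshold, and in this fit no other probe set of the array did. Limma called 0 members higher and 0 lower, and 0% of all probe sets in either direction. At an unadjusted p under 0.05, 9 members were higher (9.89% of members, 9.53% of all probe sets) and 4 were lower (4.4% of members, 5.47% of all). The DAAD2 arrays lay wholly above the DMSO arrays for 9 members, against 11% of all probe sets, and wholly below them for 11, against 9.99% of all. The median difference was -0.05 over the members and -0.02 over all probe sets. As in SNU449, the members' shares lie near those of the array. The array-wide count of 0 depends on the setting, with 68 probe sets higher and 9 lower after median centring, 123 and 31 in a single fit of all 12 arrays, 113 and 24 with an intensity trend in the variance model, and 178 and 42 genes with 1 probe set per gene. LAMB3, lower in the last of these, was the only member among them.

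ITGB1, on chromosome 10, encodes the beta-1 subunit, the common partner of the collagen, fibronectin and laminin receptors. In Hep3B its probe set 1553530_a_at was at 8.43, 8.67 and 8.12 with DAAD2, against 7.68, 7.89 and 7.81 with DMSO. The arrays did not overlap, and the difference was 0.61 ± 0.14 (SE), 1.53-fold, with a 95% interval of 0.28 to 0.94 and a limma adjusted p of 0.117. A further bright probe set, 1553678_a_at, was at 10.06, 10.10 and 9.74 with DAAD2, against 9.42, 9.49 and 9.67 with DMSO, a difference of 0.44 (adjusted p = 0.168). The brightest, 211945_s_at, was at 11.93, 11.95 and 11.78 with DAAD2, against 11.65, 11.55 and 11.72 with DMSO, a difference of 0.25 (adjusted p = 0.287). All 3 of these ITGB1 probe sets had every DAAD2 array above every DMSO array in Hep3B, with sizes that differed between the probe sets. After cyclic loess the difference of 211945_s_at was 0.14.

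In SNU449 the same 3 ITGB1 probe sets overlapped between the groups. The probe set 1553530_a_at was at 10.54, 11.01 and 10.29 with DAAD2, against 10.54, 10.74 and 10.89 with DMSO, a difference of -0.11 with a 95% interval of -0.53 to 0.31. The differences of 1553678_a_at and 211945_s_at were 0.05 and -0.01. For 1553530_a_at the response in SNU449 minus that in Hep3B was -0.72 (limma adjusted p = 0.194), and without replicate 2 of the SNU449 DAAD2 arrays it was -0.92 (adjusted p = 0.0361). Its highest adjusted p with an array left out was 0.408. The 4 other ITGB1 probe sets were dim in Hep3B, and 3 of them were dim in SNU449 too, with differences there of 0.05 to 0.09. The remaining one, 216178_x_at, whose suffix marks probes that can bind other sequences, was at 4.28, 4.46 and 4.02 with DAAD2 in SNU449, against 4.03, 3.58 and 3.55 with DMSO, a difference of 0.53 (adjusted p = 0.21) with 1 overlapping pair of arrays.

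**Figure D2:**
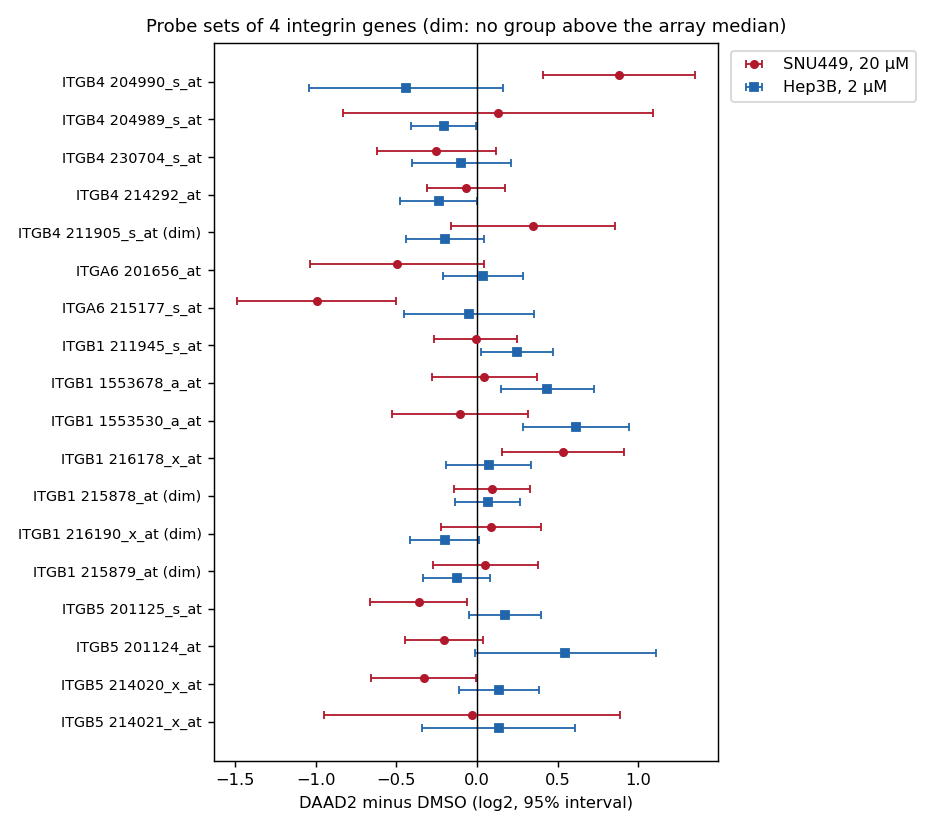
Difference DAAD2 minus DMSO (log2, with its 95% interval) for each probe set of ITGB4, ITGA6, ITGB1 and ITGB5, red circles for SNU449 at 20 µM and blue squares for Hep3B at 2 µM, with probe sets that are dim in all groups marked. The probe sets of ITGB4 spread between -0.25 and 0.88 in SNU449, and 3 bright probe sets of ITGB1 lie at 0.25, 0.44 and 0.61 in Hep3B.

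Among the other beta subunits, ITGB7 and ITGB5 had an unadjusted p under 0.05 in SNU449. They fall outside the naming rule, as do ITGB8, ITGA4, ITGA5, ITGA7, ITGAV, ITGAE, LAMB1 and LAMC1 with DAAD2, and all of these were chosen after their values were seen. ITGB7, the partner of alpha-4 and alpha-E on lymphocytes, was at 4.47, 4.10 and 4.88 with DAAD2 in SNU449, against 4.02, 3.91 and 3.81 with DMSO, a difference of 0.57 (limma adjusted p = 0.236) at a level little above the array median. ITGB5, the partner of alpha-V in a vitronectin receptor, was at 9.15, 9.47 and 9.11 with DAAD2 in SNU449 (201125_s_at), against 9.60, 9.49 and 9.72 with DMSO, a difference of -0.36 (adjusted p = 0.302). Neither pair of groups overlapped. The 3 other ITGB5 probe sets differed by -0.33 to -0.03 in SNU449 and by 0.13 to 0.55 in Hep3B. In Hep3B this ITGB5 probe set differed by 0.17, and the response in SNU449 minus that in Hep3B was -0.54 (adjusted p = 0.127) for ITGB5 and 0.72 (adjusted p = 0.153) for ITGB7. Both passed without replicate 2 of the SNU449 DAAD2 arrays, at -0.65 (adjusted p = 0.0301) for ITGB5 and 0.91 (adjusted p = 0.0222) for ITGB7. Their highest adjusted p with an array left out was 0.284 for ITGB5 and 0.310 for ITGB7. ITGB8, a further partner of alpha-V, differed by -0.26 in Hep3B on its dim probe set 211488_s_at, at an unadjusted p of 0.0164.

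The alpha subunits of the receptors that read the RGD motif of fibronectin and vitronectin are ITGA5, ITGA8 and ITGAV. ITGAV, the alpha-V subunit that also binds latent TGF-β, was at 9.95, 10.22 and 9.88 with DAAD2 in Hep3B, against 9.53, 9.45 and 9.71 with DMSO, a difference of 0.45 (limma adjusted p = 0.149) without overlap. In SNU449 it was at 11.26, 11.46 and 11.04 with DAAD2, against 10.92, 10.84 and 11.11 with DMSO, a difference of 0.30 with 1 overlapping pair of arrays. ITGA5, the alpha-5 subunit of the fibronectin receptor, was at 5.52, 4.66 and 5.32 with DAAD2 in SNU449, against 4.61, 4.78 and 4.67 with DMSO, a difference of 0.48 (adjusted p = 0.403). Its groups overlapped through replicate 2, without which the difference was 0.73 (adjusted p = 0.035). The highest adjusted p of this ITGA5 difference with an array left out was 0.713. In Hep3B ITGA5 was at 5.43, 5.66 and 6.07 with DAAD2, against 5.86, 5.59 and 5.74 with DMSO, with overlapping arrays.

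Among the other alpha subunits, ITGA4 in SNU449 (205885_s_at, difference 0.27) and ITGAE and ITGA7 in Hep3B each had 1 probe set with an unadjusted p under 0.05. The 9 probe sets of the collagen-binding ITGA1, ITGA2, ITGA10 and ITGA11 differed by -0.35 to 0.23 in SNU449 and by -0.22 to 0.17 in Hep3B. The 8 probe sets of ITGA4 and ITGA9, whose products bind VCAM1, fibronectin or tenascin, differed by -0.16 to 0.28 in SNU449 and by -0.20 to -0.03 in Hep3B. The 8 probe sets of the leukocyte integrins ITGAL, ITGAM, ITGAX, ITGAD and ITGAE differed by -0.13 to 0.10 in SNU449 and by -0.24 to 0.34 in Hep3B. Of these only ITGAE, whose product binds E-cadherin, had an unadjusted p under 0.05 in Hep3B. It was at 9.57, 9.76 and 9.74 with DAAD2 there, against 9.39, 9.46 and 9.34 with DMSO, a difference of 0.30 (limma adjusted p = 0.208) without overlap, and 0.14 (adjusted p = 0.632) after cyclic loess. ITGA7, a laminin-binding alpha subunit of muscle, was at 3.27, 3.37 and 2.98 with DAAD2 in Hep3B (the dim 209663_s_at), against 3.45, 3.74 and 3.40 with DMSO, a difference of -0.32 (adjusted p = 0.314) without overlap.

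LAMB1 and LAMC1 encode the beta-1 and gamma-1 chains, which many laminins share. They are the laminin genes with an unadjusted p under 0.05 and a positive difference in both lines, and their promoters are shown for that reason. Each is the 250 bases before the gene's start in the RefSeq annotation of GRCh38.p14, 5′ to 3′ on the gene's strand, at chr7:108003162-108003411 on the minus strand for LAMB1 and chr1:183023170-183023419 on the plus strand for LAMC1. Capitals mark the letters GGGCGG on either strand (CCGCCC on the strand shown), the GC box known to be read by factors of the SP1 family.
LAMB1: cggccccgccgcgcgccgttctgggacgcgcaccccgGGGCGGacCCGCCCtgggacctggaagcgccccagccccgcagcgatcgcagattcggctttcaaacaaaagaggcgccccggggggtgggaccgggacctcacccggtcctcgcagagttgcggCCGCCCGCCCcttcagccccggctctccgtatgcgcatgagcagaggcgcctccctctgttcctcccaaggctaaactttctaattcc
LAMC1: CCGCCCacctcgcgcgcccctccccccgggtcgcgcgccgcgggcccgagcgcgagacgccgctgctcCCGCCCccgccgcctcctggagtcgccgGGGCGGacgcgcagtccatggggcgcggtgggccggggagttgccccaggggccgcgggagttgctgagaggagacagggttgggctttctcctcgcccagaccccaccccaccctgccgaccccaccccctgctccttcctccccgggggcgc
The LAMB1 window holds 4 matches, of which the last pair overlap, and the LAMC1 window holds 3. Of all 35116 start sites in the table, 42.6% hold at least 1 match in this window and 13.9% hold 3 or more. Of the 34 genes, 23 have a start site in the table and 13 of these hold a match at any of their start sites. This counts genes and not single start sites, so it cannot be set against the 42.6%. The match is a description of the letters only.

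Both LAMB1 probe sets had every DAAD2 array above every DMSO array in each line. The probe set 211651_s_at was at 9.80, 9.86 and 9.87 with DAAD2 in SNU449, against 9.47, 9.29 and 9.26 with DMSO, a difference of 0.51 ± 0.11 (SE) with a limma adjusted p of 0.0677. In Hep3B it was at 8.43, 8.54 and 8.32 with DAAD2, against 8.02, 8.22 and 8.16 with DMSO, a difference of 0.30 (adjusted p = 0.232). With a single fit of all 12 arrays the SNU449 difference passed (adjusted p = 0.0139). The probe set 201505_at was at 10.30, 10.55 and 10.30 with DAAD2 in SNU449, against 9.87, 10.04 and 9.94 with DMSO, a difference of 0.44 (adjusted p = 0.141, and 0.0396 with all 12 arrays). In Hep3B it was at 9.12, 8.99 and 8.92 with DAAD2, against 8.57, 8.70 and 8.53 with DMSO, a difference of 0.41 (adjusted p = 0.125). As folds, the differences of 211651_s_at were 1.42 in SNU449 and 1.23 in Hep3B, and those of 201505_at were 1.35 in SNU449 and 1.33 in Hep3B.

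LAMC1 also had positive differences in both lines. Its probe set 200770_s_at was at 7.96, 7.99 and 8.22 with DAAD2 in SNU449, against 7.38, 7.72 and 7.72 with DMSO, a difference of 0.45 (limma adjusted p = 0.189) without overlap. In Hep3B it was at 9.51, 9.35 and 9.19 with DAAD2, against 8.97, 9.24 and 8.99 with DMSO, a difference of 0.28 (adjusted p = 0.315), and the lowest DAAD2 array lay just under the highest DMSO array. The other probe set, 200771_at, differed by 0.24 in Hep3B without overlap (adjusted p = 0.274) and by 0.06 in SNU449, where the 95% interval of -0.17 to 0.30 includes 0. The Hep3B differences of both genes depend on the scaling. After cyclic loess they were 0.14 (211651_s_at) and 0.26 (201505_at) for LAMB1 and 0.13 (200770_s_at) and 0.09 (200771_at) for LAMC1.

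**Figure D3:**
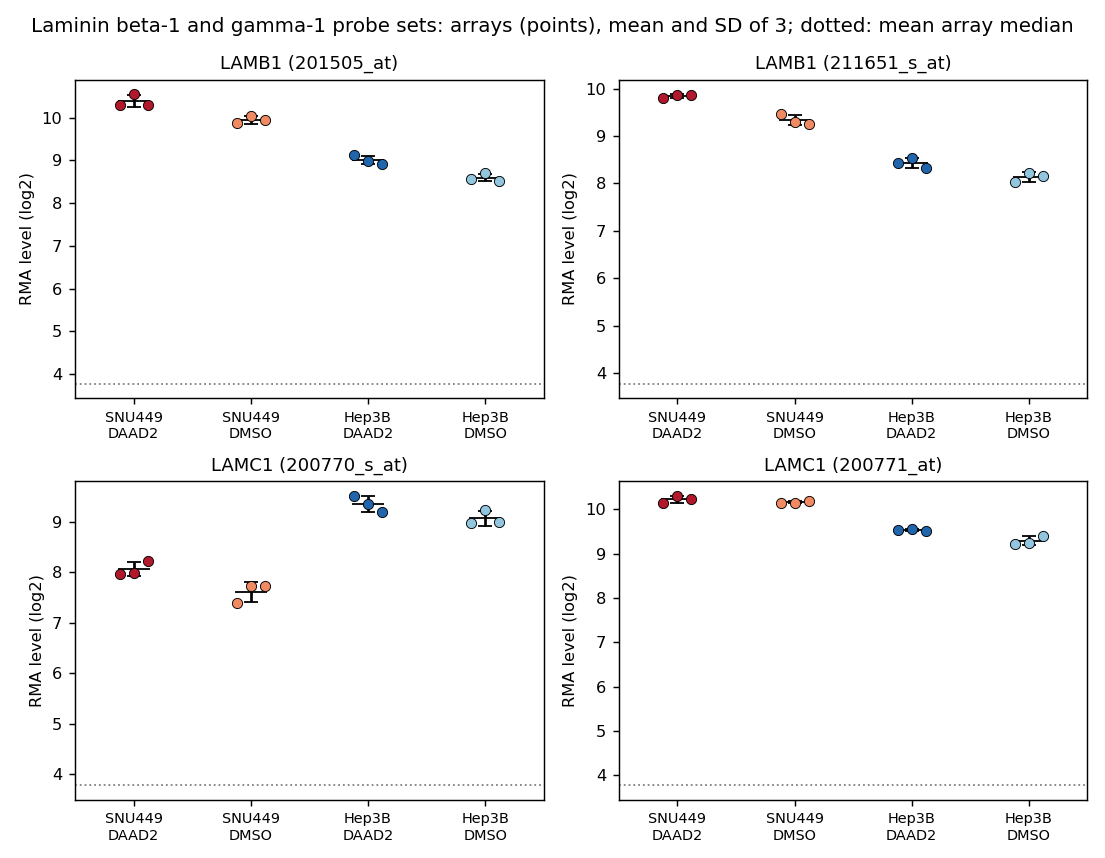
RMA level (log2) of the probe sets of LAMB1 and LAMC1 on every array, with points for arrays, bars for the mean and SD of 3 arrays and a dotted line at the mean array median of 3.78. The DAAD2 points lie above the DMSO points of the same line for both LAMB1 probe sets, by 0.51 and 0.44 in SNU449 and by 0.30 and 0.41 in Hep3B, and the LAMC1 probe sets differ in which line is higher.

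LAMB3, on chromosome 1, encodes the beta-3 chain of laminin-332, the ligand of the alpha-6 beta-4 integrin in epithelia. In Hep3B its probe set 209270_at was at 4.18, 4.16 and 4.10 with DAAD2, against 4.65, 4.71 and 4.65 with DMSO, a small range in either group and no overlap. The difference was -0.52 ± 0.09 (SE), 1.44-fold, with a 95% interval of -0.72 to -0.33. Its unadjusted p of 0.000234 was the lowest of the members in this line, and its limma adjusted p was 0.0775. In SNU449 it was at 3.91, 3.53 and 3.88 with DAAD2, against 3.54, 3.70 and 3.70 with DMSO, a difference of 0.13 at a level around the array median, where the arrays overlapped.

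LAMB3 was the only member whose response differed between the lines at an adjusted p under 0.05. Limma's interaction term, the response in SNU449 minus that in Hep3B, called 1 member higher (0.797% of all probe sets were) and 0 members lower (1.21% of all were), with 6 members higher and 6 lower at an unadjusted p under 0.05 (5.97% of all probe sets higher and 8.05% lower). For LAMB3 the term was 0.66 ± 0.15 (SE), with a 95% interval of 0.32 to 0.99 and an adjusted p of 0.0485. This call sits at the threshold. The adjusted p was 0.132 with the replicate number as a block, and 0.0805 to 0.124 when any array other than replicate 2 of the SNU449 DAAD2 arrays was left out. The level of 3.65 to 4.67 in the 4 group means is low on these arrays.

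The remaining laminin chains showed little. The 12 probe sets of the alpha chains LAMA1, LAMA2, LAMA4 and LAMA5 differed by -0.27 to 0.16 in SNU449, with 11 of them positive, and by -0.22 to 0.08 in Hep3B, with 4 positive. LAMA5, the alpha-5 chain found in many mature basement membranes, was at 9.54, 9.37 and 9.55 with DAAD2 in SNU449, against 9.35, 9.24 and 9.45 with DMSO, with overlapping arrays. In Hep3B LAMA5 was at 8.20, 8.46 and 8.35 with DAAD2, against 8.19, 8.30 and 8.31 with DMSO.

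**Figure D4:**
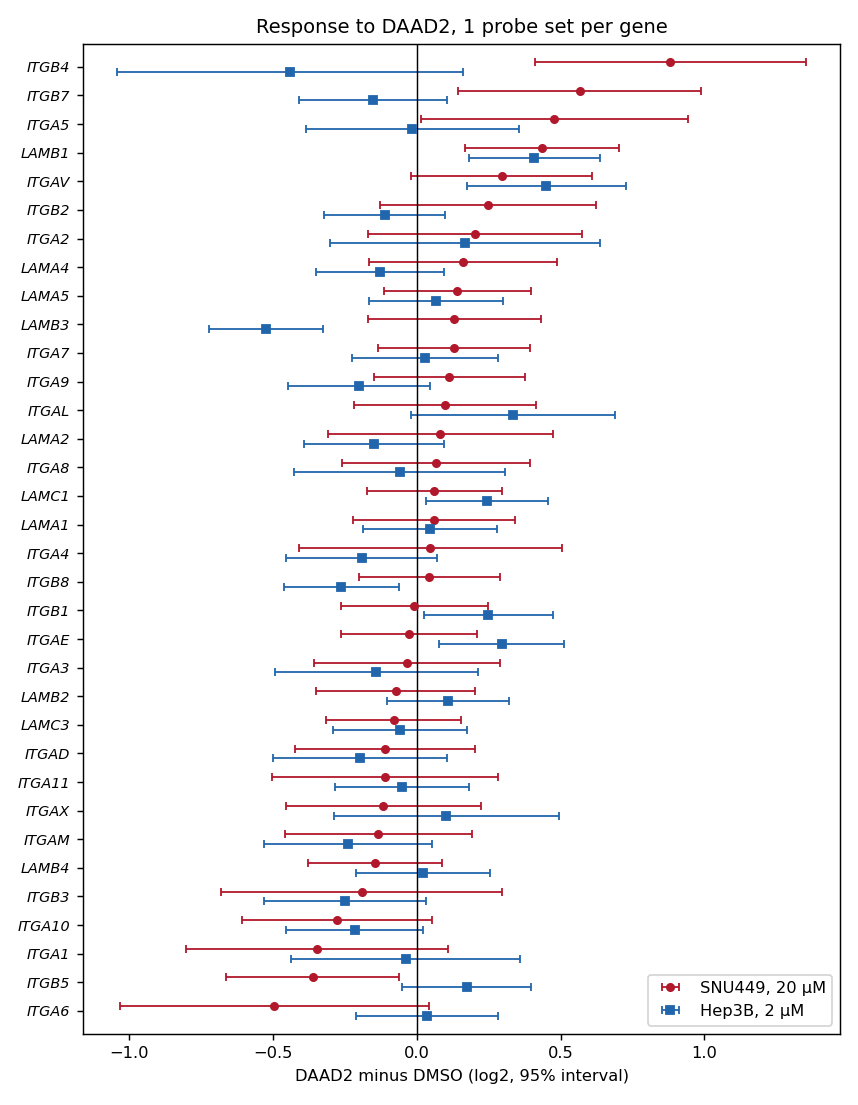
Difference DAAD2 minus DMSO (log2, with its 95% interval) for the brightest probe set of each of the 34 genes, red circles for SNU449 at 20 µM and blue squares for Hep3B at 2 µM, sorted by the SNU449 value. ITGB4 is at the top at 0.88 and ITGA6 at the bottom at -0.50 in SNU449, LAMB3 stands apart at -0.52 in Hep3B, and LAMB1 and ITGAV lie right of 0 in both lines.

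More members differed between the lines than with DAAD2 within a line. In DMSO, SNU449 minus Hep3B was called positive by limma for 22 of the 91 probe sets (24.2% of members, 14.8% of all probe sets) and negative for 11 (12.1% of members, 14.5% of all). Taking the brightest probe set per gene, 13 of the 34 genes were higher in SNU449, where 19.4% of all genes were, and 8 were lower, where 21.4% of all were. ITGA3, the alpha-3 subunit that pairs with beta-1 to bind laminin-332 and laminins with the alpha-5 chain, was at 9.85, 9.53 and 9.50 in SNU449 with DMSO, against 3.62, 3.48 and 4.05 in Hep3B with DMSO. The fitted difference of 5.91 (limma adjusted p = 2.52e-08) is the largest of the members. In Hep3B the mean of 3.71 was below the mean array median, where a level is not shown to lie above background, so the size is given as a bound: SNU449 was at least 57.4-fold higher than that median. The same kind of bound is used below wherever only 1 line was above the array median. With DAAD2 the ITGA3 levels were 9.67, 9.38 and 9.72 in SNU449 and 3.70, 3.44 and 3.59 in Hep3B.

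Both beta partners of the laminin receptors were higher in SNU449 too. ITGB4 (204990_s_at) was at 9.11, 8.70 and 8.67 in SNU449, against 5.53, 6.62 and 5.61 in Hep3B, a difference of 2.91, 7.50-fold (limma adjusted p = 4.2e-05). That size holds for the brightest ITGB4 probe set only. In DMSO 204989_s_at averaged 5.05 in SNU449 and 4.0 in Hep3B. The probe sets 211905_s_at, 214292_at and 230704_s_at averaged 3.35, 3.72 and 3.88 in SNU449, against 3.27, 3.8 and 3.81 in Hep3B. ITGB1 (211945_s_at) was at 13.48, 13.24 and 13.47 in SNU449, against 11.65, 11.55 and 11.72 in Hep3B, a difference of 1.76, 3.38-fold (adjusted p = 2.65e-06). The ITGB1 probe sets 1553530_a_at and 1553678_a_at differed by 2.93 and 2.36, so the size depends on the probe set. The same is true of ITGB5, which is not among the 12 named genes by its brightest probe set (201125_s_at, difference 0.57). Its probe set 201124_at was at 8.16, 8.06 and 8.14 in SNU449, against 4.81, 3.72 and 4.55 in Hep3B, a difference of 3.76 (adjusted p = 3.73e-06) that is the largest of any beta subunit probe set, while 214020_x_at and 214021_x_at differed by 0.51 and 0.46. ITGA6 differed by 0.74 (201656_at) and 0.85 (215177_s_at), both called.

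The ligand side followed in part. LAMB1 averaged 9.95 ± 0.09 in SNU449, against 8.60 ± 0.09 in Hep3B (201505_at, SD, n = 3 each), a difference of 1.35, and LAMA5 averaged 9.35 ± 0.10 in SNU449 against 8.27 ± 0.07 in Hep3B, a difference of 1.08 (limma adjusted p = 8.74e-06 for LAMB1 and 3.54e-05 for LAMA5). LAMB3 went the other way, with 3.65 ± 0.09 in SNU449 and 4.67 ± 0.04 in Hep3B, a fitted difference of -1.02 (adjusted p = 3.61e-05) or at least 1.85-fold lower in SNU449. The probe sets of LAMC1 disagreed: 200771_at was higher in SNU449 by 0.88 and 200770_s_at was lower by 1.46 on the log2 scale (difference -1.46), both called, so no direction is given for the gene. The same holds for ITGA1, the alpha-1 subunit of a collagen receptor, where 226731_at differed by 0.52 and 214660_at, under the array median in both lines in DMSO, by -0.74.

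The other integrins among the 12 genes with the largest differences were mixed. ITGAV was higher in SNU449, with 10.96 ± 0.14 against 9.57 ± 0.13 in Hep3B, a difference of 1.39 (limma adjusted p = 1.77e-05). ITGA4, which binds VCAM1 and fibronectin, averaged 4.55 ± 0.28 in SNU449 against 3.12 ± 0.19 in Hep3B (fitted difference 1.43, at least 1.70-fold), and ITGA10, a collagen-binding subunit of cartilage, averaged 6.0 ± 0.20 in SNU449 against 4.65 ± 0.15 in Hep3B (difference 1.35). ITGA5 was lower, with 4.69 ± 0.08 in SNU449 and 5.73 ± 0.14 in Hep3B (difference -1.04, adjusted p = 7.44e-05). ITGAL, the alpha-L subunit that leukocytes pair with beta-2, was also lower, with 4.05 ± 0.09 in SNU449 and 5.48 ± 0.27 in Hep3B (difference -1.42), and its other probe set 1554240_a_at was at least 5.30-fold lower. All 12 kept direction and call in each of the 15 alternative fits run for them.

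Beside the ITGAL values, the mean level of 9 leukocyte markers was 3.53 to 3.64 on the SNU449 arrays and 3.69 to 3.82 on the Hep3B arrays in DMSO. PTPRC, the defining leukocyte marker, was at 3.21 ± 0.05 in SNU449 and 3.23 ± 0.04 in Hep3B, below the array median in both. Limma called 2 of the 9 markers higher in SNU449, CD3E (4.95 ± 0.08 in SNU449, 4.35 ± 0.39 in Hep3B) and MS4A1 (3.47 ± 0.05 in SNU449, 3.09 ± 0.11 in Hep3B), and 2 lower, CD14 (3.32 ± 0.14 in SNU449, 5.37 ± 0.11 in Hep3B) and SPI1 (2.98 ± 0.05 in SNU449, 3.39 ± 0.07 in Hep3B). Mean levels of 8 mesenchymal markers were 8.38 to 8.55 on the SNU449 arrays and 5.96 to 6.19 on the Hep3B arrays in DMSO. Of these 8 markers limma called 5 higher and 2 lower in SNU449. Their part in the differences of the integrin and laminin genes was not tested.

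**Figure D5:**
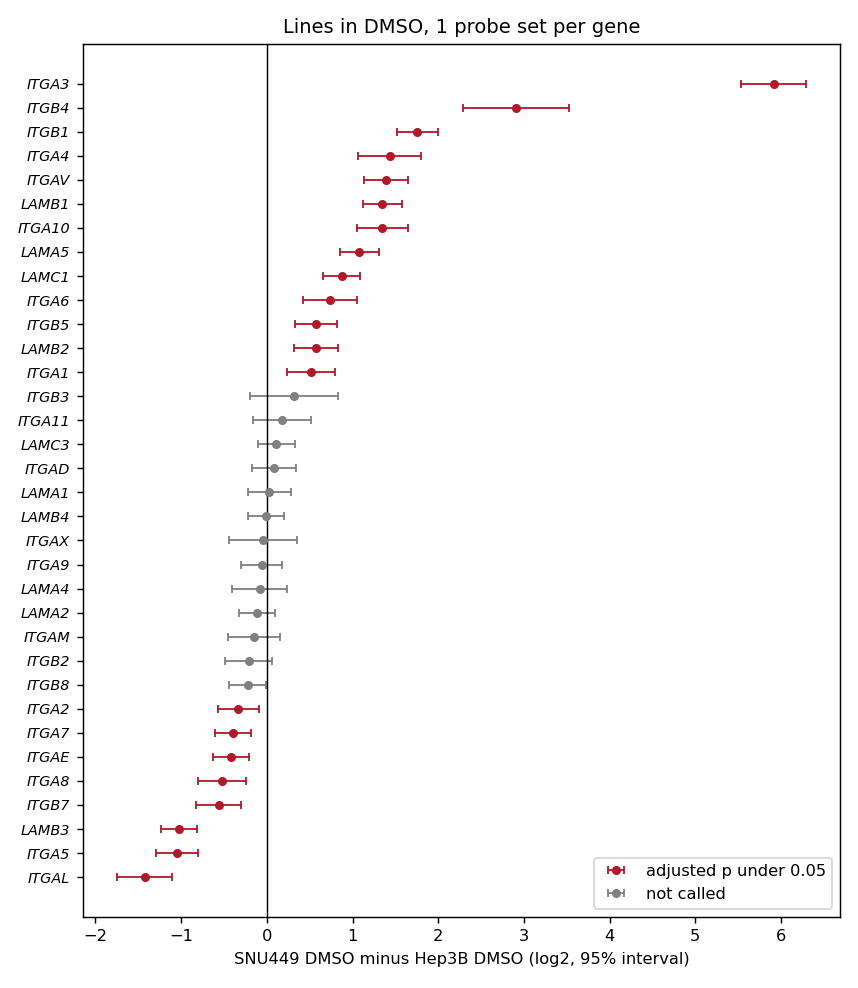
Difference SNU449 minus Hep3B in DMSO (log2, with its 95% interval) for the brightest probe set of each of the 34 genes, red where limma's adjusted p is under 0.05 and grey otherwise. ITGA3 stands apart at a fitted 5.91, followed by ITGB4 at 2.91, while ITGAL (-1.42), ITGA5 (-1.04) and LAMB3 (-1.02) lie at the other end.

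Genes that act with the integrins were counted in 5 lists, with the brightest probe set for each gene, against a background in SNU449 of 1.82% of genes called higher and 0.561% called lower with DAAD2. The lists were chosen with earlier results of these data known, so a count above the background describes the lists and is no independent support. Of 33 measured adaptor and focal adhesion genes, 1 rose with DAAD2 in SNU449 and 0 fell. It was KANK2, a protein at the rim of focal adhesions that binds talin, at 8.61 ± 0.18 with DAAD2 and 7.87 ± 0.00 with DMSO (difference 0.74, limma adjusted p = 0.026). Of 21 matrix ligands and laminin partners, 4 rose and 1 fell. Those that rose were TGFBI, an RGD protein of the matrix (10.49 ± 0.11 with DAAD2, 9.50 ± 0.03 with DMSO, difference 0.99, adjusted p = 0.00566), SPP1 or osteopontin (9.35 ± 0.12 with DAAD2, 7.51 ± 0.63 with DMSO, difference 1.83, adjusted p = 0.0186), FBN1, the microfibril protein fibrillin-1 (difference 0.92), and THBS2, a thrombospondin (difference 0.93). CCN2, a matricellular protein, fell (difference -0.74, adjusted p = 0.0424).

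Of 13 measured hemidesmosome genes, laminin co-receptors and tetraspanins, 1 rose and 1 fell with DAAD2 in SNU449, both of them syndecans, which hold matrix proteins by their heparan sulfate. SDC4 was at 9.68 ± 0.14 with DAAD2 and 8.83 ± 0.13 with DMSO (difference 0.85, limma adjusted p = 0.0171), and SDC2 was at 10.95 ± 0.11 with DAAD2 and 11.60 ± 0.11 with DMSO (difference -0.65, adjusted p = 0.034). Of 14 integrin ligands on cell surfaces, 2 rose and 0 fell. These were JAM2, a junctional protein that alpha-4 beta-1 can bind (6.67 ± 0.06 with DAAD2, 5.73 ± 0.02 with DMSO, difference 0.94, adjusted p = 0.00555), and ICAM1, the ligand of the ITGAL product (difference 0.67, adjusted p = 0.0253). Limma called 0 of the 12 genes of the latent TGF-β pathway in SNU449, with 1 higher (9.42% of all genes) and 1 lower (7.18% of all) at an unadjusted p under 0.05. TGFBI and JAM2 passed with any of the 6 arrays left out, at highest adjusted p-values of 0.0495 for TGFBI and 0.0463 for JAM2. The other 8 genes each missed the threshold without 4 or 5 of the arrays, with highest adjusted p-values between 0.0951 (SPP1) and 0.178 (SDC2), and all 8 passed without replicate 2 of the DAAD2 arrays. With the replicate number as a block, 3 of the 8 genes that rose in the 5 lists were called (TGFBI, SPP1 and JAM2) and 0 of the 2 that fell. Over the whole array that block left 204 probe sets called higher in place of 570 and 58 lower in place of 228.

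In Hep3B limma called 0 genes of these 5 lists with DAAD2 (0% of all genes in either direction), and of their 93 measured genes 17 were higher (13.6% of all genes) and 6 lower (6.63% of all) at an unadjusted p under 0.05. The lowest p-values in each list belonged to NEDD9 (0.56) and GIT1 (-0.37) among the adaptors, NPNT (0.70) and AGRN (0.36) among the ligands, SDC4 (0.34) and DST (0.34) among the co-receptors, NRROS (-0.37) and TGFB2 (0.63) in the TGF-β pathway, and ICAM4 (-0.73) and ADAM9 (0.35) among the surface ligands, each with its log2 difference. SDC4 is thus the gene of these lists with a call in SNU449 and one of the lowest p-values of its list in Hep3B (8.64 ± 0.08 with DAAD2, 8.31 ± 0.05 with DMSO, adjusted p = 0.151). NPNT, or nephronectin, is a ligand of the alpha-8 beta-1 integrin.

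The responses of 6 list genes differed between the lines in limma's interaction test, where 1.46% of all genes were called higher and 1.82% lower. JAM2 (1.08, adjusted p = 0.00128), SPP1 (2.06, adjusted p = 0.0178), FBN1 (0.95, adjusted p = 0.0182), KANK2 (0.72, adjusted p = 0.0235) and BCAM (0.73, adjusted p = 0.0443), a receptor for the laminin alpha-5 chain, had a higher difference in SNU449 than in Hep3B. RSU1 (-0.53, adjusted p = 0.0469), a partner of PINCH in the ILK complex, had a lower one. With the replicate number as a block only JAM2 and SPP1 of these 6 were called, and the adjusted p was 0.0699 for FBN1, 0.0753 for KANK2, 0.103 for BCAM and 0.134 for RSU1. Over the whole array that block left 186 probe sets called higher in place of 435 and 234 lower in place of 661. JAM2 also passed with any array left out, whereas the highest adjusted p with an array left out was 0.0545 for SPP1, 0.0563 for FBN1, 0.0698 for KANK2, 0.117 for BCAM and 0.117 for RSU1.

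In DMSO, 47 of the 93 list genes were called higher in SNU449 than in Hep3B and 17 lower, where 19.4% of all genes were higher and 21.4% lower. Of the 33 adaptor genes 20 were called higher and 4 lower in SNU449 than in Hep3B, of the 21 matrix genes 12 and 4, of the 13 hemidesmosome and co-receptor genes 7 and 4, of the 12 TGF-β genes 6 and 1, and of the 14 surface ligands 2 and 4. Examples are the focal adhesion proteins VCL (11.42 ± 0.17 in SNU449, 8.33 ± 0.11 in Hep3B, difference 3.09) and NEDD9 (difference 3.08), the RGD protein EDIL3 (12.28 ± 0.11 in SNU449, 3.17 ± 0.24 in Hep3B, at least 361-fold higher), the tetraspanin CD9 (difference 3.64), TGFB2 (difference 6.48) and CDH1, the E-cadherin that the ITGAE product binds (3.59 ± 0.17 in SNU449, 9.99 ± 0.14 in Hep3B, at least 73.9-fold lower).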

How the data were processed

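Total RNA of 12 samples was hybridised to 1 Affymetrix U133 Plus 2.0 array each. The values deposited by the authors are RMA levels per probe set on the log2 scale. RMA corrects background, normalizes between arrays and sums up the probes. No source used here names its version, and the study also names BRB Array Tools. The number of arrays, 3 per group, limits the precision.

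The 62 control probe sets were set aside, and the other 54613 were tested without a filter, two-sided, with limma 3.58.1 in R 4.3.3 and Benjamini-Hochberg adjustment over all of them: DAAD2 against DMSO within each line (6 arrays each), the lines in DMSO (6 arrays), and the interaction (12 arrays). Genes came from the platform annotation, 41091 probe sets with 1 symbol, 1801 with several and 11721 with none, and only the first kind is named. Where a gene stands for several probe sets, the brightest over the 12 arrays was used.

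Values on every array are given for genes with a call in a DAAD2 comparison or the interaction, or with an unadjusted p under 0.05 and a fold over 1.5 with DAAD2, and for the lines the 12 called genes with the largest difference are named. From each list up to 4 called genes are named, or the 2 of lowest p. The members and lists were chosen with earlier results of these data known. The script was tested on simulated data. The alternatives tried were a single fit of the 12 arrays, the replicate number as a block, a filter on dim probe sets, median centring, quantile normalization, cyclic loess, an intensity trend, 1 probe set per gene, an adjusted p under 0.10, the GAPDH 3′ to 5′ difference as a covariate and each array left out in turn. Promoters came from a RefSeq table and were searched with Python 3.11.15.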

Additional observations from a re-analysis of the deposited data

Results flagged for a closer look

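The response of LAMB3 (209270_at) differed between the lines in limma's interaction test, with a difference of 0.66 (SNU449 response minus Hep3B response, adjusted p = 0.0485). LAMB3 had a difference of 0.13 with DAAD2 in SNU449 and -0.52 in Hep3B. Neither passed on its own (adjusted p = 0.811 in SNU449 and 0.0775 in Hep3B).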

How the results depend on the processing

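With 3 arrays per group and no detection call used here, small differences of dim probe sets may have been missed, and no detection limit was set for them. In SNU449 the members called higher with DAAD2 were 0, but 2 with all 12 arrays in one fit (both LAMB1 probe sets), 2 with an intensity trend (ITGB4, LAMB1), 1 with 1 probe set per gene (ITGB4), 2 at an adjusted p under 0.10 and 2 with the GAPDH covariate (ITGA5, ITGB4). The members called lower were 0, but 1 (ITGA6) with all 12 arrays, the dim filter, the trend, the 0.10 threshold or the GAPDH covariate. Leaving out arrays gave 0 to 2 higher and 0 to 1 lower, the higher counts without SNU449 DAAD2 replicate 2. Over all probe sets, 570 were called higher and 228 lower in the fit reported above. These became 1163 and 687 with all 12 arrays, 614 and 264 with the dim filter, and 582 and 284 with the trend. They were 555 and 391 with the GAPDH covariate, and 595 and 573 without DAAD2 replicate 2. With 1 probe set per gene, 522 genes were higher and 214 lower. At an unadjusted p under 0.05 the 8 higher of 91 probe sets (8.79%) became 4 of 34 genes (11.8%) with 1 probe set per gene. With an array left out they were 6 to 10 probe sets. The 3 lower (3.3%) became 5 with all arrays, 6 with the GAPDH covariate and 1 of 34 genes (2.94%) with 1 probe set per gene. With an array left out they were 1 to 5 (1 without DMSO replicate 3, 5 without DAAD2 replicate 1 or 2). In Hep3B 0 members were called lower, but 1 (LAMB3) with 1 probe set per gene or at 0.10, and 0 with any array left out. The 9 higher at an unadjusted p under 0.05 (9.89% of 91 probe sets) became 4 with quantile normalization and 5 with cyclic loess (6 to 9 with an array left out). With 1 probe set per gene they became 5 of 34 genes (14.7%). The 4 lower (4.4%) became 1 with the dim filter and 2 with centring, quantile normalization or loess (3 to 6 with an array left out). With 1 probe set per gene these became 2 of 34 genes (5.88%). Between the lines in DMSO the 22 higher of 91 probe sets (24.2%) became 13 of 34 genes (38.2%) with 1 probe set per gene. With an array left out, 21 to 23 probe sets were higher and 10 to 11 lower. The interaction call of LAMB3 was lost (0 higher) with the replicate block, centring, cyclic loess and the trend. It called 2 higher at 0.10, and 2 higher and 1 lower with the GAPDH covariate (ITGB4, LAMB3, ITGB5). Leaving out arrays gave 0 to 5 higher and 0 to 3 lower, with 0 higher without every array except SNU449 DAAD2 replicate 2, whose omission gave 5 higher (3 ITGB4 probe sets, ITGB7, LAMB3) and 3 lower (ITGB1, ITGB5, ITGA6). That omission raised the calls over the whole array too, to 719 probe sets higher and 1602 lower in place of 435 and 661. With the GAPDH covariate the whole array had 657 higher and 1189 lower. The cause was not tested. No member probe set with an unadjusted p under 0.05 changed sign under any alternative. Of all 91, 38 changed sign under at least 1 alternative with DAAD2 in SNU449 and 38 in Hep3B, all with differences of at most 0.19 in SNU449 and 0.17 in Hep3B.

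Same-numbered arrays are not known to share a culture. Correlations of their deviations from the group means were -0.01, -0.08 and -0.06 in SNU449, -0.23, -0.27 and 0.09 in Hep3B and 0.06, 0.21 and 0.02 between the lines in DMSO, so the numbers were not taken to pair the arrays. With the replicate number as a block, 0 members were called higher and 0 lower with DAAD2 in either line, and 0 higher and 0 lower in the interaction. Of the list genes in SNU449, 3 were then called higher in place of 8 and 0 lower in place of 2. Calls over the whole array in SNU449 fell too, to 204 probe sets higher in place of 570 and 58 lower in place of 228.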
